A study of Mus musculus with 8 samples.

Results

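The genes examined were the 4 ligand genes *Pdgfa*, *Pdgfb*, *Pdgfc* and *Pdgfd* and the 2 receptor genes *Pdgfra* and *Pdgfrb* of the platelet-derived growth factor (PDGF) family, taken by name as 6 of the 33696 genes counted. All 6 were counted in every library. They were measured by single-nucleus RNA sequencing (snRNA-seq) of the optic nerve (ON), the tract of axons, glia and sheath between eye and brain, from female mice aged 120 days. The 4 control libraries (replicates 1 to 4) came from Piezo2f/f mice, in which *Piezo2*, a mechanically gated ion channel gene, is flanked by loxP sites. The 4 other libraries (replicates 10 to 13) are labelled cKO, for Olig2-cre;Piezo2f/f, in which Cre is knocked into *Olig2*, a transcription factor gene of the oligodendrocyte lineage, so that these mice also carry a disrupted *Olig2* allele that control mice lack. Both groups thus carried the floxed *Piezo2* alleles. Each library pooled 6 ONs, so p-values measure the spread between pools rather than between animals. Values are listed below in the order of the replicate numbers, control first.

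PDGF ligands are secreted as dimers that bring together receptor tyrosine kinases on the target cell. PDGF-A signals through PDGF receptor alpha, PDGF-B through both receptors, PDGF-C mainly through receptor alpha and PDGF-D mainly through receptor beta, and PDGF-C and PDGF-D need cleavage by proteases before they bind. In the central nervous system PDGF-A acting on receptor alpha is a classic mitogen of oligodendrocyte precursor cells (OPCs), and PDGF-B from endothelium recruits the mural cells (pericytes and smooth muscle) that carry receptor beta.

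After filtering, 37198 nuclei remained, 3425 to 6198 per library, with a median of 2369 to 3313.5 unique molecular identifiers (UMIs) per nucleus. Libraries held 39628926 to 56541132 UMIs, of which 26.3 to 38.8% lay in these nuclei, and any pair of libraries shared 1 to 11 barcodes. Nuclei were named from marker lists that left out the 6 genes: 19378 oligodendrocytes (OLs), 8332 astrocytes, 3621 fibroblasts, 1045 microglia, 1002 OPCs, 544 macrophages, 432 endothelial cells, 428 neurons, 141 T cells, 126 committed OPCs and 75 mural cells. These are 35124 named nuclei, and the other 2074 (5.58%), in 8 clusters with low UMIs, markers of another type or pituitary genes, were left unnamed and out of every value by cell type. Some of the unnamed clusters held markers of microglia or OPCs beside those of other cells, so shares of nuclei and of UMIs below are given among named nuclei. Shares with unnamed nuclei counted were added after the data were seen. Every marker of a list was highest in the cells it named, except that 1 of the 7 astrocyte markers was highest in fibroblasts. In 3 clusters of astrocytes and fibroblasts the marker level was under 0.5. A marker counts as raised at 0.25 or more of its mean in the 3 clusters where it is highest, and a cluster's marker level is the median of these ratios over the list. A cluster counted with the astrocytes (226 nuclei, led by *Nkx2-1*) had 4 of 7 markers raised and a level of 0.329, against 6 or 7 raised and 0.613 to 1 in the other 9 astrocyte clusters. Of the clusters counted with the fibroblasts, one led by *Slc47a1* (1119 nuclei) had 3 of 8 markers raised and a level of 0.163, beside 0.134 for the OL list, and one led by *Prg4* (273 nuclei) had 4 of 8 and 0.281, beside 0.183. The other 4 had 4 to 7 raised and levels of 0.543 to 0.656. A neuron cluster (46 nuclei, 52.2% from cKO 11, led by *Fstl5*, *Ano2* and *Gnal*) also lay under 0.5, at 0.467 with 3 markers raised, and was kept throughout. Values without the 3 astrocyte and fibroblast clusters, an alternative added after the data were seen, are given where they differ. A cluster of 96 nuclei led by pituitary hormone genes, all from control libraries and 88.5% from control 3, was among those left unnamed, and 2 OL clusters drew 59.5 and 68.5% of their nuclei from control 3. In OLs, *Piezo2* was at 445 ± 58.6 CPM (SD, n = 4; CPM are counts scaled to the same total in every sum) in control libraries and 539 ± 23.6 CPM (n = 4) in those labelled cKO. The *Piezo2* count was therefore not lower where Cre was present (log2 difference 0.26, adjusted p = 0.53, edgeR's quasi-likelihood test with Benjamini-Hochberg adjustment). These 3' counts may not report loss of the floxed exon, so the group is called by its label throughout. *Olig2* in OLs was higher in the libraries labelled cKO, at 47.2 ± 4.07 CPM (SD), against 30.7 ± 6.98 CPM in control libraries. The groups did not overlap, and the log2 difference was 0.61 ± 0.14 (SE; edgeR adjusted p = 0.20). In OPCs *Olig2* was also higher, by 0.696 ± 0.219 (log2, SE; edgeR adjusted p = 0.624), with overlapping groups. Neither difference was called, and that in OLs depended on the processing, as given at the end.

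Levels are CPM of UMIs summed per library and cell type, with at least 10 nuclei per sum, and are compared only within a gene. Empty droplets of the same libraries, which hold free RNA, are the background. A level under empty droplets does not show that a cell type lacks the RNA. *Olig2* in OLs was at 39.0 CPM, for example, beside 65.8 CPM in empty droplets. The OL marker list was at 20835 CPM in OLs themselves and at 20629.4 to 26838.5 CPM in empty droplets. In them *Pdgfa* was at 204.9 CPM (170.4 to 238), *Pdgfb* at 9.33 (7.81 to 11.0), *Pdgfc* at 10.7 (8.73 to 12.5), *Pdgfd* at 31.7 (20.7 to 39.7), *Pdgfra* at 53.8 (44.6 to 60.3) and *Pdgfrb* at 24 (19.7 to 31.1).

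*Pdgfa* (chromosome 5, 138961758 to 138983435, minus strand, GRCm39) encodes the A chain. In OLs it was at 78.3, 90.1, 104 and 95.8 CPM in control libraries and 96.9, 118, 115 and 118 CPM in those labelled cKO. In astrocytes it was at 77.7, 100.3, 83.3 and 103 CPM, and 109, 110.5, 101 and 109 CPM. OLs and astrocytes did not differ beyond their spread (log2 difference 0.04, higher in 5 of 8 libraries, exact sign-flip permutation test, two-sided p = 0.56). When only types present in every library were ordered, endothelial cells came next. Astrocytes exceeded them in 8 of 8 libraries by 0.69 ± 0.31 (log2, SD, exact sign-flip p = 0.0078, adjusted p = 0.027). That ordering was added after the data were seen. The mean was 153 ± 85.1 CPM in mural cells (SD, n = 4, with 25 UMIs in all 75 mural nuclei) and 44.8 to 75.6 CPM in the remaining types. Every one of these library values lay under that library's empty droplets except mural cells of control 3, at 251 CPM. No cell type thus stood above empty droplets for this ligand in more than 1 library. Such values do not show that the nuclei lack *Pdgfa*. By number of molecules, OLs held 57.7 ± 7.67% of the *Pdgfa* UMIs in named nuclei and were 54.4% of named nuclei.

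*Pdgfb* (chromosome 15, 79880009 to 79899181, minus strand) encodes the B chain. Endothelial cells held 314, 212, 139 and 158 CPM in control libraries and 161, 233, 184 and 209 CPM in those labelled cKO. Microglia held 123, 136, 208 and 184 CPM, and 228, 216, 164 and 158 CPM. Both were above empty droplets in 8 of 8 libraries, and which of them was higher varied by library (log2 difference 0.17 in favour of endothelium, 5 of 8 libraries, exact p = 0.49). This difference ran from 0.0066 without control 1 to 0.28 without control 3. Macrophages were lower, at 62.9 ± 18.3 CPM (n = 8), still above empty droplets in 8 of 8 libraries. Microglia exceeded macrophages by 1.47 ± 0.32 on the log2 scale (SD, 8 of 8 libraries). The exact p of 0.0078 is the smallest this design can give, and it was 0.078 after adjustment over the 60 neighbouring pairs tested for the 6 genes. OLs held only 1.29 ± 0.40 CPM, under the 9.33 CPM of empty droplets. A *Pdgfb* UMI was seen in 38.7% of endothelial nuclei, 25.7% of microglia and 0.382% of OLs, and after thinning to 1000 UMIs per nucleus in 18.9%, 15.9% and 0.150%. Microglia, 2.94% of named nuclei, and endothelial cells, 1.23%, supplied 26.4 ± 4.69% and 23.8 ± 6.27% of the *Pdgfb* UMIs in named nuclei. Unnamed nuclei held 17.8 ± 3.66% of the *Pdgfb* UMIs in all nuclei, more than for any of the other 5 genes, and with them counted the shares were 21.7 ± 4.17% and 19.5 ± 5.34%.

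*Pdgfc* (chromosome 3, 80943668 to 81121473, plus strand) encodes a ligand with a CUB domain that must be cut off. Astrocytes held 62.0, 58.3, 67.3 and 40.2 CPM in control libraries and 37.1, 43.9, 59.1 and 46.5 CPM in those labelled cKO. Fibroblasts held 42.4, 38.9, 26.4 and 47.1 CPM, and 21.4, 32.6, 42.2 and 33.0 CPM. Astrocytes were higher in 7 of 8 libraries by 0.55 ± 0.43 (log2, exact p = 0.016, adjusted p = 0.13). The fibroblast level rested on the *Slc47a1* and *Prg4* clusters. Without these clusters fibroblasts held 9.64 ± 5.84 CPM, above empty droplets in 3 of 8 libraries, and astrocytes, at 47.2 ± 8.08 CPM without the *Nkx2-1* cluster, exceeded them in 8 of 8 libraries by 2.45 ± 0.94 (exact p = 0.0078, adjusted p = 0.067). Endothelial cells followed at 27 ± 15.4 CPM, mural cells at 18.4 ± 21.6 CPM (n = 4) and OPCs at 15.1 ± 2.10 CPM. The mural value rests on few molecules, since all 75 mural nuclei together held 3 *Pdgfc* UMIs. Summed OLs, at 7.30 ± 1.88 CPM, were under empty droplets in 8 of 8 libraries. Among the 18 OL clusters *Pdgfc* ran from 0.37 to 15.2 CPM, beside a mean of 10.7 CPM in empty droplets. Astrocytes supplied 53.7 ± 9.96% of *Pdgfc* UMIs in named nuclei.

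*Pdgfd* (chromosome 9, 6168240 to 6379265, plus strand) encodes the other CUB-domain ligand. Astrocytes held 415, 359, 396 and 371 CPM in control libraries and 296, 343, 376 and 376 CPM in those labelled cKO. Endothelial cells held 377, 206, 371 and 372 CPM, and 346, 260.0, 278 and 358 CPM. Fibroblasts held 248, 138, 295 and 222 CPM, and 231, 178, 271 and 216 CPM. Astrocytes exceeded endothelial cells in 6 of 8 libraries by only 0.20 ± 0.32 (log2, exact p = 0.125), a difference within the spread. It ran from 0.12 to 0.26 with a library left out and turned negative in thinned nuclei. Endothelial cells exceeded fibroblasts in 8 of 8 libraries by 0.53 ± 0.23 (exact p = 0.0078, the smallest possible, adjusted p = 0.078). Mural cells held 101 ± 20.2 CPM (n = 4), OPCs 36.6 ± 10.7 CPM and OLs 6.60 ± 2.36 CPM, the last well under the 31.7 CPM of empty droplets. All 75 mural nuclei together held 12 *Pdgfd* UMIs, or 64.8 CPM (95% exact Poisson interval 33.5 to 113, counting error only). A *Pdgfd* UMI was seen in 54.7% of astrocytes, 48.8% of endothelial nuclei, 40.3% of fibroblasts and 1.59% of OLs, and at 1000 UMIs per nucleus in 28.6%, 26.1%, 18.4% and 0.573%. Astrocytes, 24.4% of named nuclei, supplied 67.3 ± 14.1% of their *Pdgfd* UMIs.

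**Figure D1:**
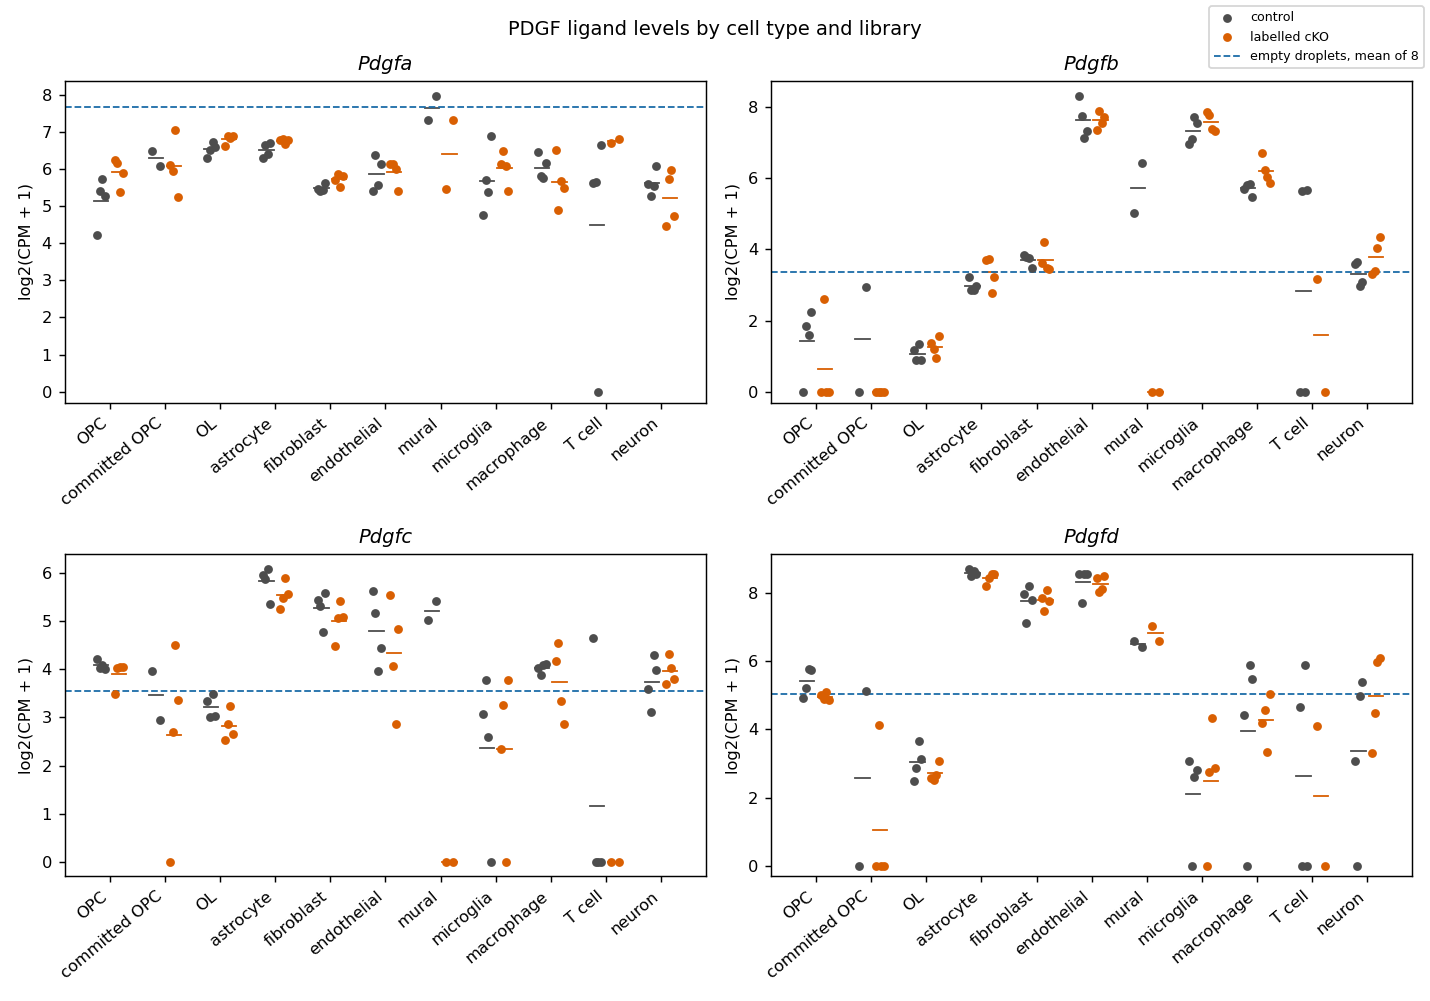
Levels of the 4 ligand genes as log2(CPM + 1) by cell type, one point per library (control and labelled cKO), with a short line at the mean of each group and a dashed line at the mean level of empty droplets. *Pdgfb* stands out in endothelial cells, at 139 to 314 CPM, and in microglia, at 123 to 228 CPM, and *Pdgfd* in astrocytes, endothelial cells and fibroblasts, whereas *Pdgfa* stays under empty droplets almost everywhere.

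*Pdgfra* (chromosome 5, 75311994 to 75358876, plus strand) encodes receptor alpha and was highest in OPCs. They held 747, 768, 887 and 682 CPM in control libraries and 981, 769, 1122 and 861 CPM in those labelled cKO. Fibroblasts came next, with 129, 158, 123 and 147 CPM in control libraries and 205, 183, 162 and 168 CPM in those labelled cKO. Every OPC value lay above every value of the summed fibroblasts, and the paired log2 difference was 2.42 ± 0.28 (SD, 8 of 8 libraries, exact p = 0.0078, adjusted p = 0.078). Fibroblasts exceeded endothelial cells, at 58.3 ± 27.9 CPM, by 1.5 ± 0.61 (8 of 8 libraries, exact p = 0.0078, adjusted p = 0.078). Endothelial cells were above the 53.8 CPM of empty droplets in 4 of 8 libraries, and the endothelial sums also held 369 to 3115 CPM of the fibroblast marker list, and 101 to 569 CPM of the OPC marker list. In the libraries with the highest endothelial *Pdgfra*, control 2 at 94.1 CPM and cKO 11 at 106 CPM, the fibroblast list was at 1035 and 732 CPM and the OPC list at 418 and 393 CPM, while in cKO 13, with the highest fibroblast list, *Pdgfra* was at 55.7 CPM. The part of either list in the *Pdgfra* value was not tested. Without the *Slc47a1* and *Prg4* clusters *Pdgfra* in fibroblasts was higher, at 243 ± 47.1 CPM.

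Along the OL lineage *Pdgfra* was at 852 ± 144 CPM in OPCs, 27.9 ± 35.5 CPM in committed OPCs (n = 6, 0 to 92.5 CPM) and 8.98 ± 1.53 CPM in OLs. A UMI was seen in 89.5% of OPCs, 11.1% of committed OPCs and 2.44% of OLs, and at 1000 UMIs per nucleus in 56.5%, 2.4% and 0.851%. Astrocytes, which are not expected to carry the gene, gave 2.35% and 0.860%, so the share in OLs was at background. OPCs were 2.82 ± 0.35% of named nuclei and supplied 53.0 ± 4.09% of the *Pdgfra* UMIs in them, and fibroblasts, 10.4% of named nuclei, supplied 32.8 ± 3.69%. With unnamed nuclei counted, OPCs were 2.66 ± 0.286% of nuclei and supplied 48.0 ± 5.62%, and fibroblasts supplied 29.5 ± 2.54%. In a whole-tissue measurement, fewer cells of a type and less RNA per cell could not be told apart. Here the share of OPCs among named nuclei was 2.75 ± 0.336% in control libraries and 2.90 ± 0.388% in those labelled cKO, a difference of 0.150 percentage points (exact permutation test, two-sided p = 0.6), and 0.197 percentage points among all nuclei (exact p = 0.4). Among named nuclei the difference ran from -0.011 to 0.29 percentage points with a library left out, so its sign was not stable.

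*Pdgfrb* (chromosome 18, 61178212 to 61218133, plus strand) encodes receptor beta and was highest in mural cells. The 4 libraries with at least 10 mural nuclei gave 1013 and 1046 CPM for control and 1520.1 and 831 CPM for those labelled cKO. Over all 75 mural nuclei, 175 UMIs gave 945 CPM (95% exact Poisson interval 810.1 to 1096, counting error only), and 80% of the nuclei had a UMI. In fibroblasts the gene was at 92.6, 73.0, 103 and 105 CPM in control libraries and 121, 85.9, 95.6 and 98.6 CPM in those labelled cKO. Fibroblasts exceeded astrocytes, at 31.6 ± 6.08 CPM, by 1.62 ± 0.29 (log2, 8 of 8 libraries, exact p = 0.0078, adjusted p = 0.078), and astrocytes were above empty droplets in 7 of 8 libraries. Without the *Slc47a1* and *Prg4* clusters fibroblasts held 145 ± 26.3 CPM. OLs held 4.4 ± 1.02 CPM, and committed OPCs held 0 UMIs in 126 nuclei, which allows a share of nuclei with a UMI of up to 2.38% (3 counts of the total, counting error only).

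Endothelial cells had the most uneven *Pdgfrb* values, at 119, 153, 58.6 and 48.2 CPM in control libraries and 199.7, 74.3, 196 and 48.7 CPM in those labelled cKO. The mural marker list in the same sums was at 1019, 741, 462 and 599 CPM, and 1044, 594, 1259 and 386 CPM, so the libraries with high *Pdgfrb* were those with high mural markers. Among the 155 endothelial nuclei with at least 1 UMI of a mural marker, 36.8% had a *Pdgfrb* UMI and the level was 201 CPM. Among the 277 without one, 2.17% did and the level was 7.99 CPM, under the 24 CPM of empty droplets. The median UMIs per nucleus were 3912 and 2182. *Pdgfra* was likewise higher in the former, at 80.7 against 38.8 CPM, with a UMI in 21.3% against 5.42% of nuclei. *Pdgfb* and *Pdgfd* levels differed less, with 204 and 184 CPM for *Pdgfb* and 304 and 349 CPM for *Pdgfd*. Dividing the nuclei in this way was chosen after the values were seen. The part of mural RNA, or of depth, in these values was not tested.

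**Figure D2:**
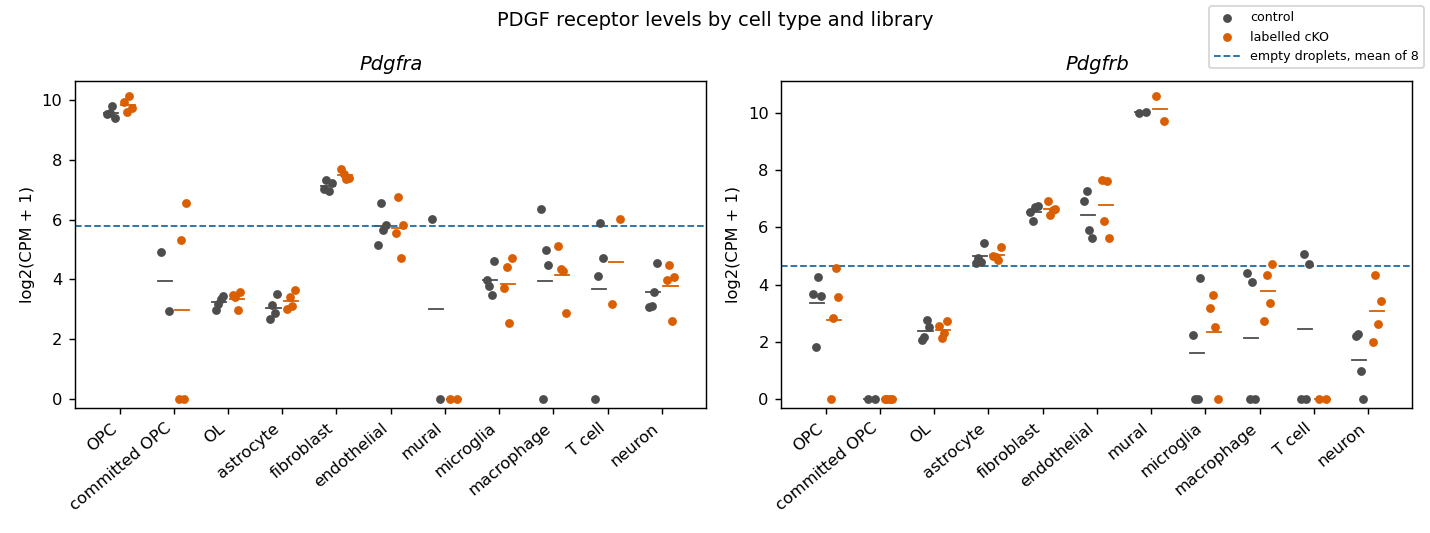
Levels of the 2 receptor genes as log2(CPM + 1) by cell type, one point per library (control and labelled cKO), with a short line at the mean of each group and a dashed line at the mean level of empty droplets. *Pdgfra* is highest in OPCs, at 682 to 1122 CPM, with fibroblasts second, and *Pdgfrb* is highest in mural cells, at 831 to 1520.1 CPM.

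Counted by molecules rather than by level, the large cell types weighed more. Among named nuclei, mural cells were 0.22% and held 6.19 ± 3.21% of *Pdgfrb* UMIs, fibroblasts held 47.3 ± 9.53% and astrocytes 28.9 ± 9.54%. Of the 22 combinations of gene and cell type holding at least 5% of a gene's UMIs, 0 differed in share between genotypes (exact permutation test of library shares, lowest adjusted p = 0.943, and 0.471 with unnamed nuclei counted). With 4 libraries against 4 this exact permutation test cannot go below p = 0.0286, or 0.629 for 1 share after adjustment over 22, so that 13 shares would have to reach that p together before any could pass.

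**Figure D3:**
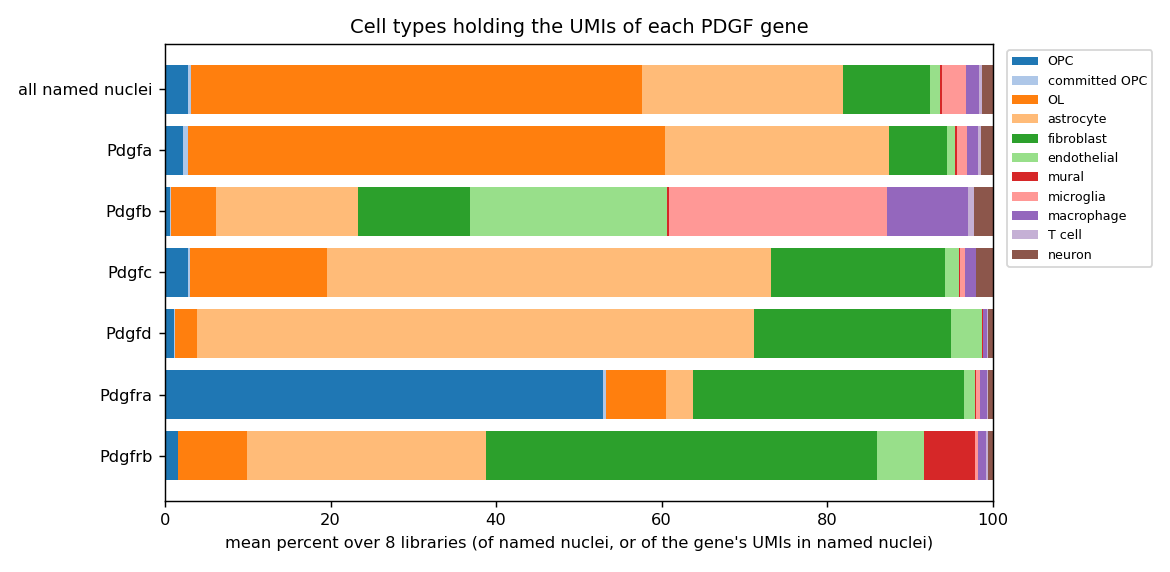
Share of each gene's UMIs in named nuclei by cell type, in percent, as the mean over 8 libraries, beside the share of named nuclei (2074 unnamed nuclei are left out). OPCs are 2.82% of named nuclei and hold 53.0% of the *Pdgfra* UMIs in them, and microglia and endothelial cells, at 2.94% and 1.23%, hold 26.4% and 23.8% of *Pdgfb*.

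Fibroblasts were the only named type in which both receptor genes stood above empty droplets in 8 of 8 libraries when summed, and they were not uniform. Of 3621 fibroblast nuclei, 737 had a UMI of *Pdgfra* alone, 513 of *Pdgfrb* alone, 471 of both and 1900 of neither. As background, a UMI was seen in 2.44% of OLs for *Pdgfra* and 1.19% for *Pdgfrb*, at a median of 2615 UMIs per nucleus against 3226 in fibroblasts. *Pdgfrb* was seen in 39.0% of nuclei with *Pdgfra* and in 21.3% of those without, with medians of 3419 and 3088 UMIs per nucleus. This gap was narrower within 5 of the 6 clusters described next than over all fibroblasts. The share with *Pdgfrb* among nuclei with and without *Pdgfra* was 36.5 and 29.1% in the *Lama1* cluster (medians of 2275 and 1886 UMIs per nucleus), 35 and 23.3% in the *Igfbp3* cluster (3745 and 2637.5), 55.5 and 36.4% in the *Bmp6* cluster (3374 and 2547), 54.7 and 38.2% in the *Slc6a20a* cluster (4702.5 and 3937), 18.3 and 9.83% in the *Slc47a1* cluster (4007 and 3372.5) and 9.62 and 8.60% in the *Prg4* cluster (6335.5 and 3809). Nuclei with *Pdgfra* had more UMIs in each of the 6 clusters, and the part of depth in these shares was not tested. In OPCs the receptors hardly met, with 865 nuclei holding *Pdgfra* alone and 32 both.

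Clustering, from which the 6 genes were left out, split the fibroblasts into 6 clusters, described here by a leading gene and without a test. *Pdgfra* was at 600.0 ± 199 CPM in the *Lama1* cluster (552 nuclei), which is also led by *Cemip*, *Col6a3* and *Pi16* and whose *Lama1* and *Col6a3* encode matrix proteins. It was at 249 ± 48.9 CPM in the *Igfbp3* cluster (572 nuclei) and 237 ± 56.2 CPM in the *Bmp6* cluster (457 nuclei). It was at 89.2 ± 27.9 CPM in the *Slc6a20a* cluster (648 nuclei), 50.3 ± 31.3 CPM in the *Prg4* cluster (273 nuclei) and 41.1 ± 8.20 CPM in the *Slc47a1* cluster (1119 nuclei), the last also led by *Adamtsl3*, itself on the fibroblast marker list. Against empty droplets of the same library, *Pdgfra* was higher in 0 of 8 libraries in the *Slc47a1* cluster, 3 of 8 in the *Prg4* cluster, 7 of 8 in the *Slc6a20a* cluster and 8 of 8 in the other 3. The range of the *Lama1* values in the libraries labelled cKO, given below, overlapped that of OPCs, but within every library OPCs were higher. The *Slc47a1* cluster held the most *Piezo2* of the 6, at 841 ± 121 CPM.

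*Pdgfrb* followed another order in the fibroblasts, with 199 ± 45.3 CPM in the *Bmp6* cluster, 197 ± 59.1 CPM in the *Lama1* cluster, 129 ± 23.8 CPM in the *Slc6a20a* cluster and 100.2 ± 23.2 CPM in the *Igfbp3* cluster, against 33.7 ± 11.1 CPM in the *Slc47a1* cluster and 19.0 ± 10.5 CPM in the *Prg4* cluster. It was above empty droplets in 6 of 8 libraries in the *Slc47a1* cluster, 3 of 8 in the *Prg4* cluster and 8 of 8 in the other 4. *Pdgfc* was highest in the *Slc47a1* cluster, at 82.7 ± 18.5 CPM, followed by 34.6 ± 23.5 CPM in the *Prg4* cluster, and was at 4.72 to 11.3 CPM in the other 4, with the *Lama1* cluster lowest. *Pdgfd* was at 334 ± 71.6 CPM in the *Slc47a1* cluster, 307 ± 69.9 CPM in the *Bmp6* cluster, 223 ± 43.9 CPM in the *Slc6a20a* cluster, 127 ± 38.5 CPM in the *Lama1* cluster, 97.6 ± 21.6 CPM in the *Igfbp3* cluster and 84.2 ± 48.6 CPM in the *Prg4* cluster. *Pdgfb* ranged from 1.73 ± 3.40 CPM in the *Lama1* cluster to 28.2 ± 17.4 CPM in the *Igfbp3* cluster, and *Pdgfa* from 26.7 to 74.8 CPM, under empty droplets.

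**Figure D4:**
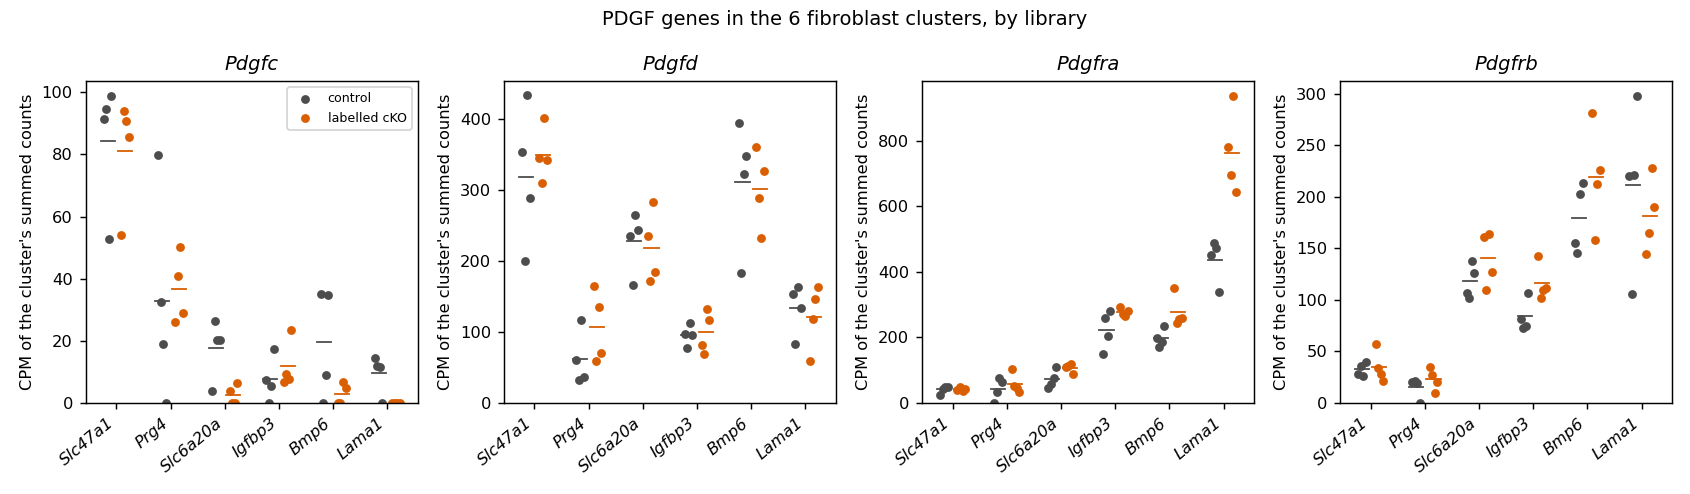
CPM of *Pdgfra*, *Pdgfrb*, *Pdgfc* and *Pdgfd* in the 6 fibroblast clusters, one point per library (control and labelled cKO) with a line at the mean of each group. *Pdgfra* peaks in the *Lama1* cluster, at 600.0 CPM, where *Pdgfc* is lowest, and *Pdgfc* peaks in the *Slc47a1* cluster.

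The clusters counted as astrocytes differed among themselves in their ligands. The *Nkx2-1* cluster, named for a forebrain patterning gene and with fewer astrocyte markers than the others, held the most *Pdgfc* of the 10 astrocyte clusters, at 153 ± 74.3 CPM (n = 7), and the least *Pdgfd*, at 62.3 ± 29.2 CPM. The highest *Pdgfd*, 527 ± 77.6 CPM, was in a cluster of 1251 nuclei led by *Adcy8* and *Myoc*. The 18 OL clusters stayed low for both receptors. Their highest values, 44.5 CPM for *Pdgfra* and 21.9 CPM for *Pdgfrb*, were both in a cluster of 317 nuclei led by *Npy* and were under empty droplets.

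The libraries labelled cKO were then compared with control, the contrast the study made to ask what *Piezo2* does in the OL lineage. The free RNA of the libraries differed with genotype. In empty droplets, 2 of the 16 marker lists did not overlap between groups, namely the erythroid list (4 globin genes, 11617 to 18659 CPM in control libraries and 5070 to 8378 CPM in those labelled cKO) and the pituitary list (204 to 8072 and 7.06 to 77.6 CPM). The erythroid list did not overlap in the sums of 3 of the 8 types tested either (OPCs, OLs and microglia), and in fibroblasts it was at 1547 to 2438 CPM and 898 to 1598 CPM. The pituitary list did not overlap in 7 of the 8 (all but neurons), and in fibroblasts it was at 30.6 to 1314 CPM and 2.57 to 29.5 CPM. The 6 genes themselves overlapped between groups in empty droplets. The part of these differences in the values below was not tested. Of the 48 combinations of gene and cell type in the 8 types with enough libraries, 29 passed the filter on low counts, and 0 were called at an adjusted p under 0.05 and a log2 difference over 0.5. Over all genes in the same 8 types, 0.0324% of tests were called, which is 23 of 70983 (0.0822% in OLs, 0.0715% in OPCs, 0.0761% in microglia, 0.0245% in endothelial cells and 0% in astrocytes, fibroblasts, macrophages and neurons). At an unadjusted p under 0.05 there were 4 of 29, beside 6.36% of all tests, and groups did not overlap in 2 of 29, beside 4.03%. By type, the share of all genes with an unadjusted p under 0.05 was 8.94% in OLs, 7.67% in astrocytes, 6.15% in endothelial cells, 6.03% in macrophages, 5.58% in microglia, 5.16% in OPCs, 4.41% in fibroblasts and 3.95% in neurons. The share without overlap was 5.73% in OLs, 4.68% in astrocytes, 3.61% in macrophages, 3.6% in endothelial cells, 3.56% in microglia, 3.54% in OPCs, 2.91% in neurons and 2.74% in fibroblasts. DESeq2 also called 0 of the 6 genes in any type.

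Among the receptor comparisons, the lowest unadjusted p was that of *Pdgfra* in fibroblasts, whose 4 libraries labelled cKO all lay above the 4 control libraries. The log2 difference was 0.35 ± 0.12 (SE), and edgeR's adjusted p was 0.99 (unadjusted p = 0.011). In OPCs the same gene differed by 0.26 ± 0.17 (edgeR adjusted p = 0.98) with overlapping groups, and by 0.16 without cKO 12 to 0.35 without cKO 11. *Pdgfrb* differed by 0.06 ± 0.15 in fibroblasts and 0.38 ± 0.45 in endothelial cells, with overlapping groups and edgeR adjusted p of 0.998 and 0.96. The endothelial difference ran from 0.11 without cKO 12 to 0.72 without cKO 13, and the fibroblast difference from -0.031 to 0.14 with a library left out.

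Among the ligands, *Pdgfa* in OLs differed by 0.27 ± 0.11 (SE; edgeR unadjusted p = 0.025, adjusted p = 0.52). The groups drew OLs from different clusters, since control libraries gave 41.6% of OL nuclei and between 7.41 and 91.2% of a single OL cluster, and the part of this in the difference was not tested. Fitted by cluster, *Pdgfa* was higher in 13 and lower in 2 of the 15 OL clusters where it was tested, from -0.43 to 0.56. These clusters came from the same libraries, so their directions are not independent of each other. In OPCs *Pdgfa* was at 17.6, 41.2, 52.1 and 37.7 CPM in control libraries and 74.5, 70.2, 40.6 and 58.0 CPM in those labelled cKO, all under empty droplets. Its log2 difference was 0.71 ± 0.28 (edgeR unadjusted p = 0.021, adjusted p = 0.94), with overlapping groups. *Pdgfd* in OPCs was at 29.3, 36.1, 54.1 and 52.7 CPM, and 30.8, 28.5, 32.9 and 28.2 CPM, a log2 difference of -0.55 ± 0.25 (edgeR unadjusted p = 0.045, adjusted p = 0.95). These values were near empty droplets, at 30.3 to 39.7 CPM in control libraries and 20.7 to 34.5 CPM in those labelled cKO. OPCs lay above the empty droplets of their own library in 6 of 8 libraries. *Pdgfb* in macrophages did not overlap between groups, at 51.0, 55.2, 56.4 and 43.2 CPM, and 102, 73.9, 64.2 and 56.8 CPM, with a log2 difference of 0.45 ± 0.28 (edgeR adjusted p = 0.84). *Pdgfc* in fibroblasts differed by -0.21 ± 0.21 (edgeR adjusted p = 0.99), from -0.38 without control 3 to -0.076 without cKO 10. None of these differences passed the test.

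**Figure D5:**
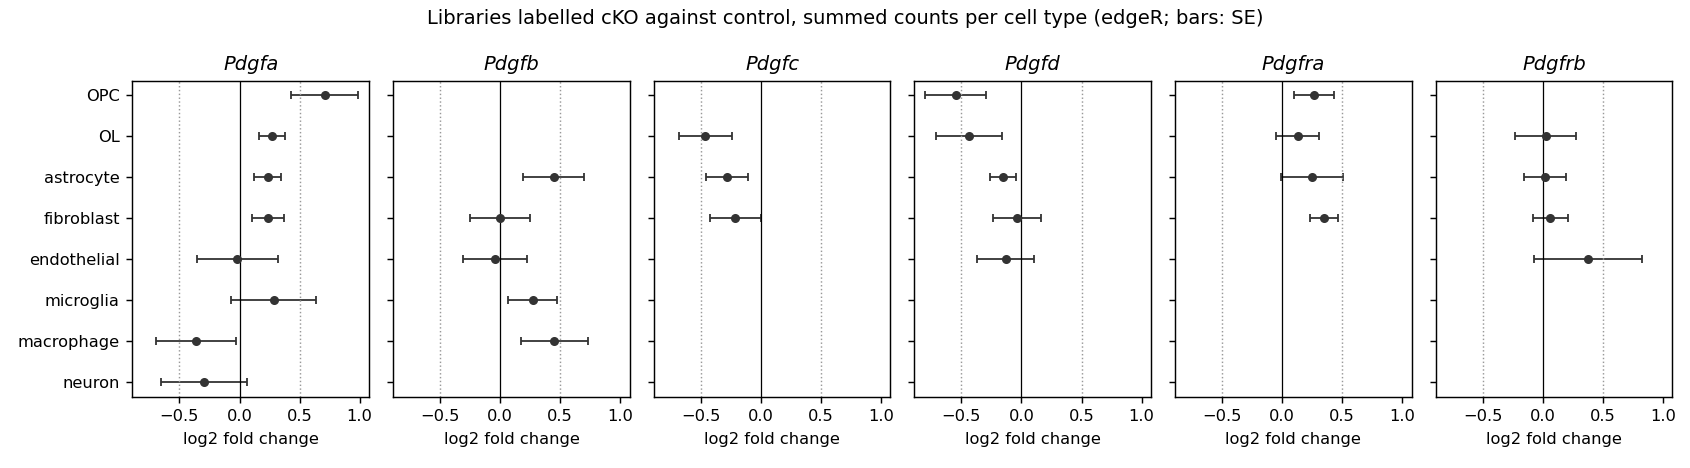
Log2 difference, labelled cKO minus control, with its standard error for the 29 tested combinations of gene and cell type. None of the 29 was called, and the highest value is *Pdgfa* in OPCs, at 0.71.

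Fitting the clusters of OLs, astrocytes and fibroblasts one by one, an alternative added after the data were seen, gave 65 tests in 31 clusters and 0 calls, beside 0.0973% of all tests in these clusters. An unadjusted p under 0.05 was reached in 6 of the 65, beside 6.45% of all tests. These were *Pdgfa* in 3 OL clusters (0.54 ± 0.18, 0.41 ± 0.20 and 0.44 ± 0.19, edgeR adjusted p of 0.42 to 0.69), *Pdgfb* in an astrocyte cluster of 891 nuclei led by *Gm49891* and *Iffo2* (0.95 ± 0.35, edgeR adjusted p = 0.97, the largest of the 6) and *Pdgfra* in 2 fibroblast clusters. The lowest adjusted p belonged to *Pdgfra* in the *Lama1* fibroblast cluster. It was at 449.8, 488, 473 and 337 CPM in control libraries and 781, 694, 935 and 643 CPM in those labelled cKO, from 43 to 94 and 92 to 142 UMIs per library, and the cluster was 10.9 to 21.7% of the fibroblasts of a library. The groups did not overlap, and the log2 difference was 0.80 ± 0.19 (SE; edgeR unadjusted p = 3.1e-04, adjusted p = 0.16), where 5.84% of the genes tested in that cluster had an unadjusted p under 0.05 and 3.58% did not overlap. The adjusted p ranged from 0.137 to 0.574 when each library was left out in turn, and DESeq2 gave 0.78 and 0.45. The *Pdgfra* difference was 0.51 ± 0.24 in the *Slc6a20a* cluster (edgeR unadjusted p = 0.043, adjusted p = 0.84), 0.44 ± 0.22 in the *Bmp6* cluster (adjusted p = 0.82), 0.29 ± 0.19 in the *Igfbp3* cluster (adjusted p = 0.999) and -0.03 ± 0.24 in the *Slc47a1* cluster (adjusted p = 0.998). In the *Prg4* cluster the gene did not pass the filter on low counts. Whether these differences differ from each other was not tested.

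Of the 51 other genes of the PDGF pathway lists, 0 were called in either direction in 287 tests over the 8 cell types, and 7 (2.44%) had an unadjusted p under 0.05, beside 6.36% of all tests. Of these, *Etv4* (log2 difference 1.10 ± 0.31), *Spry1* (1.15 ± 0.36) and *Fos* (0.51 ± 0.16), targets of the ERK kinase pathway, were in astrocytes, with edgeR adjusted p of 0.54 to 0.59, among the 8 of 11 ERK-responsive targets tested there. The other 4 were *Cblb*, a ubiquitin ligase gene, in astrocytes (-0.27 ± 0.12), *Nrp1*, a co-receptor gene, in fibroblasts (-0.30 ± 0.12), and *Pcsk5*, a proprotein convertase gene, and *Lrp1*, an endocytic receptor gene, in neurons (-0.68 ± 0.29 and 0.50 ± 0.22), with edgeR adjusted p of 0.63 or more. Across cell types, *Etv1*, *Etv4* and *Etv5*, transcription factors induced by ERK, were highest in OPCs, at 239, 110.2 and 218 CPM as means over libraries. *Cspg4*, a proteoglycan that binds PDGF-A, was also highest there, at 285 CPM, but it is on the marker list by which OPCs were named. Of the 11 ERK-responsive targets, 4 were highest in OPCs (these 3 and *Spry4*), 4 in mural cells (*Myc*, *Srf*, *Spry1* and *Spry2*), 2 in macrophages (*Fos* and *Dusp6*) and 1 in fibroblasts (*Egr1*). The mural means rest on 4 libraries with only 23025 to 31594 UMIs each in these cells, so a few molecules can set a level there. *Plat*, which encodes the protease that cleaves PDGF-C, was highest in astrocytes at 240 CPM, beside 216 CPM in empty droplets. *Pdgfrl*, a receptor-like gene, was highest in fibroblasts at 103 CPM.

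As a description over the 11 cell types and with no test, the gene whose log2 mean CPM was most like that of *Pdgfra* was *C1ql1* (r = 0.84), itself on the OPC marker list. For *Pdgfb* it was *Elk3* (r = 0.94), for *Pdgfd* *Wwtr1* (r = 0.97) and for *Pdgfrb* *Tnks1bp1* (r = 0.97), with *Vtn* at 0.95. For *Pdgfc* it was *Gm20416* (r = 0.97), and for *Pdgfa* *Paqr4* (r = 0.92). Among the 6 genes themselves the most alike pair was *Pdgfc* and *Pdgfd* (r = 0.90). The points share libraries and depth, and the values for mural cells rest on 4 libraries.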

How the data were processed

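The authors deposited raw UMI counts for every barcode of each library, made by them with Cell Ranger 7.0.0 against GRCm39. Whether introns were counted is not given in the sources used here. Here, nuclei were called per library from a UMI cut-off and a test against the profile of empty droplets, then kept with at least 200 genes, at most 5% mitochondrial counts, and UMIs and mitochondrial share within 5 and 3 median absolute deviations. The nuclei with the highest scrublet scores were removed as doublets, at 0.8% per 1000 nuclei. The background removal and integration of the study were not repeated, so the cell types are rebuilt and may differ from the study's. Nuclei were clustered (scanpy 1.11.5, leidenalg 0.10.2, resolution 3, 51 clusters) without the 6 genes, *Piezo1*, *Piezo2* and *Olig2*, and named from marker lists by rules set after the clusters were seen. Clusters with low UMIs or markers of several types stayed unnamed.

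The counts of all nuclei of a type were added up within each library. The test between genotypes was edgeR 4.0.16 (quasi-likelihood, TMM, Benjamini-Hochberg over all genes of a type), with DESeq2 1.42.0 as an alternative, in R 4.3.3. The scripts were tested on simulated data. The order of cell types used exact sign-flip permutation tests within libraries on log2 CPM (prior count 0.5), and shares used exact permutation tests, all two-sided. Intervals cover counting error only. The named genes were the 6 family genes in every cell type, pathway genes called between genotypes, *Piezo2* and *Olig2* as a check of the labels, and for each family gene the 5 genes most alike over cell types among those with at least 50 UMIs and 5 CPM; the other genes named were chosen after their values were seen. The family genes and lists were chosen with earlier results of these data known.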

Additional observations from a re-analysis of the deposited data

Results flagged for a closer look

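In 58 groups of 4 libraries the lowest or highest value was compared with the range of its group, and 3 values stood far from the other 3 libraries. Chance alone sets apart about 1 in 20 groups. *Pdgfb* in fibroblasts was at 17.6 CPM in cKO 11, with 9.86 to 11.2 CPM in the other libraries of its group. *Pdgfc* in OPCs was at 10.3 CPM in cKO 10, with 15.3 to 15.7 CPM in the others. *Pdgfd* in endothelial cells was at 206 CPM in control 2, with 371 to 377 CPM in the others.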

How the results depend on the processing

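The number of members and of pathway genes called between genotypes was 0 under every alternative run, including other normalization, no filter, DESeq2, thinning, free RNA subtraction and each library left out. No paired analysis was possible because the replicate numbers of control (1 to 4) and labelled cKO (10 to 13) libraries are not shared. Of the 60 neighbouring cell types, 0 differed after adjustment, 10 did with a prior count of 2 and 12 of 42 did when only types present in every library were ordered (the last added after the data were seen); leaving out libraries gave 0, where with 7 libraries 19 pairs would have to reach the smallest exact p of 0.0156 before any passed (10 pairs with 8), and the control libraries alone cannot pass. Without the 3 astrocyte and fibroblast clusters of low marker level (added after the data were seen) 0 differed too. Shares of UMIs between genotypes could not pass after adjustment for 1 share alone, so their count of 0 says nothing about stability. *Pdgfra* in OPCs above fibroblasts became significant with a prior count of 2 (2.41, adjusted p = 0.047). When only types present in every library were ordered, its exact sign-flip test gave an adjusted p of 0.027. The same value held there for *Pdgfa* in astrocytes above endothelial cells, *Pdgfb* in microglia above macrophages and *Pdgfd* in endothelial cells above fibroblasts. It also held for *Pdgfra* in fibroblasts above endothelial cells and *Pdgfrb* in fibroblasts above astrocytes. *Pdgfd* in astrocytes against endothelial cells turned to -0.088 in thinned nuclei. The difference in OPC share was -0.0044 percentage points with coarser clustering and -0.011 to 0.29 with a library left out, negative without cKO 11. *Pdgfb* in endothelial cells, at -0.04, was 0.076 with more doublets removed, 0.019 with more UMIs required, 0.0048 with coarser clustering and -0.22 to 0.25 with a library left out. *Pdgfrb* in fibroblasts was -0.031 to 0.14 with a library left out. *Olig2* in OLs (0.61, adjusted p = 0.20) passed the threshold without the low-count filter (edgeR adjusted p = 0.039) and by DESeq2 (adjusted p = 0.041). The cause of these changes was not tested.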
